A study of Mus musculus with 3 samples.

Results

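Long intergenic noncoding RNAs (lincRNAs) were followed in activated spleen T cells of young mice, aged mice and aged mice given fumarate. The members were the genes that the deposited table classes as lincRNA, that lie on neither X nor Y, and that reached at least 1 CPM (reads per 1000000 reads of the library) in at least 1 of 3 libraries. The table holds 17796 genes, of which 360 are classed as lincRNA, 8 of them on X or Y. Of the other 352, 160 met the minimum and 192 stayed under it in every library. Because the measured CPM itself chose the members, a gene that reached 1 CPM in a single library had to differ between libraries. This held for 23 members, of which 6 passed only through the Young, 12 only through the Old and 5 only through the Old + Fumarate library. A further 28 passed in 2 libraries and 109 in all 3. Just inside the minimum were 4930428O21Rik and Gm33104, with a highest value of 1.01 CPM each, and A730063M14Rik with 1.04 CPM. Just outside were Gm49207 with 0.990 CPM, and 4732487G21Rik and Gm17484 with 0.987 CPM each.

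LincRNAs are transcripts made by RNA polymerase II, mostly spliced and polyadenylated, that lie apart from protein-coding genes and have no known long reading frame. Some stay in the nucleus and build bodies there, as Neat1 does in paraspeckles, and others mainly carry small RNAs in their introns or exons, such as snoRNAs, which guide the modification of ribosomal RNA, or microRNAs, which repress messenger RNAs. In T cells, Mir155hg and Mir17hg are known as hosts of microRNAs that act in activation and proliferation.

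All 3 groups were C57BL/6 mice. The Young group was aged 2 months and labelled vehicle, the Old group was aged 24 months and received vehicle, and the Old + Fumarate group was aged 24 months and received fumarate, a tricarboxylic acid cycle intermediate, at 10 mg/kg 3 times a week for 2 months. T cells from spleen were stimulated for 3 days with antibodies to CD3 and CD28 plus interleukin 2, and polyadenylated RNA was sequenced. With 1 library for each group, and pooling of mice left unstated in the labels, no difference between groups could be checked against replicates and no p-value is given.

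Depth, estimated in units of 1000000 reads, was 41.0 in Young, 17.3 in Old and 13.9 in Old + Fumarate, which gave a median of 82.2, 48.5 and 33.3 reads per member. Differences are log2 ratios of CPM + 1, and every fold limit refers to that scale unless plain CPM is named. The 95% intervals are those of the log2 ratio of plain CPM, from counting error alone, and for low genes they lie further from 0 than the ratio of CPM + 1. Genes of T cell identity were present at a summed 5152, 4532 and 5499 CPM in the Young, Old and Old + Fumarate libraries, and 0 of 18 differed by 2-fold in any comparison. Markers of other blood cells were not at the same level in the 3 libraries. The 15 erythroid and platelet markers summed to 14.4, 1466 and 185 CPM, and 14 of them stood 2-fold or more higher in Old than in Young and as far lower in Old + Fumarate than in Old. The 10 basophil and mast cell markers summed to 6.86, 547 and 104 CPM, and all 10 were past 2-fold in both of these directions. The 9 macrophage and monocyte markers in the table summed to 11.6, 66.6 and 13.4 CPM with 6 higher in Old than in Young. The 9 natural killer cell markers summed to 141, 192 and 282 CPM with 5 higher, and the 12 B cell markers to 143, 232 and 73.7 CPM with 1 higher. Of protein-coding genes at 1 CPM or more, 12.4% were at least 2-fold higher in Old than in Young. Ighm alone held 135, 212 and 54.1 CPM of the B cell sum. Most of the natural killer sum lay in Klrk1 (84.5, 64.2 and 119 CPM), Klrd1 (24.5, 39.9 and 71.0 CPM) and Eomes (29.7, 26.9 and 47.4 CPM). Of these, Klrk1 and Eomes were lower in Old than in Young. Of the markers named here, Fcgr1 was listed at 0 in Young, and Adgre1 and Klra8 at 0 in Old + Fumarate. In such bulk RNA, fewer cells of a type and less RNA per cell cannot be told apart.

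In 8 members, RefSeq (GRCm38.p6) places 16 microRNA hairpins on the same strand, with 29 mature microRNAs. The sequences below are shown because they are the known products of the host members described next, and because hosts of several hairpins carry microRNAs with the same seed. Bases 2 to 8, the seed that pairs with target messages, are in capitals.
miR-17-5p: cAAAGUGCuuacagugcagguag
miR-20a-5p: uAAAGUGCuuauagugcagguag
miR-19a-3p: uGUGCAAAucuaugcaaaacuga
miR-19b-3p: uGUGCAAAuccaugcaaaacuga
miR-155-5p: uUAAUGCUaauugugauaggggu
miR-142a-3p: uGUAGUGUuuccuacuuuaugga
let-7a-5p: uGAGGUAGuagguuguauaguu
let-7d-5p: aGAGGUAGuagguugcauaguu
let-7f-5p: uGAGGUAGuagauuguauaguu
miR-191-5p: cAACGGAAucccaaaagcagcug
In Mir17hg, miR-17-5p and miR-20a-5p share the seed AAAGUGC and miR-19a-3p and miR-19b-3p share GUGCAAA. The let-7 microRNAs let-7a-5p, let-7d-5p and let-7f-5p lie within 6720427I07Rik and share GAGGUAG. The libraries measured the polyadenylated host RNA, and the mature microRNAs were not measured.

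None of the 8 microRNA hosts was past 2-fold in any comparison. Mir17hg, which carries the miR-17 to miR-92 cluster (chromosome 14), was at 13.2 CPM in Young, 16.5 CPM in Old and 16.7 CPM in Old + Fumarate. Mir155hg, which carries miR-155 (chromosome 16), was at 19.2, 17.6 and 23.3 CPM in the same order. Mir142hg, host of the blood cell microRNA miR-142 (chromosome 11), was at 1.85, 1.91 and 2.17 CPM. Mir17hg, Mir155hg and Mir142hg did not reach a 1.5-fold difference in any comparison. 6720427I07Rik, with the let-7 hairpins (chromosome 13), was at 1.34, 2.09 and 1.73 CPM, and 4833445I07Rik, with miR-191 and miR-425 (chromosome 9), at 1.88, 2.49 and 1.23 CPM, lowest in the treated library. Gm37233, host of miR-5103 (chromosome 1), came closest to 2-fold, at 1.29, 3.42 and 3.18 CPM, with log2 ratios of 0.95 for Old over Young and 0.86 for Old + Fumarate over Young. 2900076A07Rik, host of miR-1839 (chromosome 7), was at 1.14, 0.746 and 0.838 CPM, and Snhg20, the host of miR-6516, is described with the snoRNA hosts. Among 14 protein-coding genes of microRNA processing, 2 were at least 2-fold higher in Old than in Young. Of all protein-coding genes at 1 CPM or more, 12.4% were, so the list does not stand out. None of the 14 was past 2-fold in either comparison with Old + Fumarate. The 2 higher genes were Prkra, a partner of Dicer, at 4.07, 9.27 and 4.48 CPM, and Zc3h12a, which cleaves microRNA precursors and inflammatory messages, at 20.1, 44.8 and 33.8 CPM.

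Of the snoRNA hosts on the list, 5 are members. Snhg6 was at 65.8, 73.7 and 72.8 CPM in Young, Old and Old + Fumarate, and Snhg15 at 59.0, 69.7 and 68.1 CPM. Snhg12 was at 46.8, 38.8 and 45.4 CPM, and Snhg20 at 9.96, 12.2 and 12.3 CPM. Epb41l4aos, the fifth of the snoRNA hosts among the members, was highest in Young, at 17.9, 11.99 and 13.3 CPM. None of these 5 differed by 1.5-fold in any comparison, and neither did any of 14 protein-coding genes for the proteins of snoRNA particles, such as the methyltransferase Fbl. Of the 17 hosts on the list that are not members, 3 were at least 1.5-fold lower and 1 was higher in Old than in Young, so level values were not shared by all hosts. Among them Snhg5 was at 69.7, 39.7 and 49.8 CPM and 2410006H16Rik at 133, 81.9 and 82.7 CPM.

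Of 4 members known to stay in the nucleus, Neat1 and Lncpint passed 2-fold in a comparison and Malat1 came close to it. Neat1, the scaffold of paraspeckles (chromosome 19, 5824708 to 5845478, mm10), was at 66.8 CPM in Young, 156 CPM in Old and 77.3 CPM in Old + Fumarate. On the log2 scale Neat1 stood 1.22 above Young in Old (interval 1.15 to 1.30), and at -1.01 in Old + Fumarate over Old (interval -1.12 to -0.91). The Old library alone was high, and Old + Fumarate was within 0.21 of Young. Malat1, a nuclear speckle RNA from the neighbouring locus, was at 89.5, 179 and 151 CPM. Its ratio of Old over Young, 0.99, fell just under 2-fold, and unlike Neat1 it stayed nearer to Old than to Young in the treated library, at -0.25 over Old and 0.75 over Young. Lncpint, known as a target of p53, was low in all 3 libraries, at 1.15, 1.91 and 3.68 CPM, and passed 2-fold only in Old + Fumarate over Young, at 1.12 (interval 1.08 to 2.29). Pvt1, downstream of Myc, was at 8.47, 7.12 and 6.79 CPM, and Myc itself at 418, 313 and 332 CPM. The 16 protein-coding genes of paraspeckle proteins, which include Sfpq and Pspc1, had a median log2 ratio of -0.14 in Old over Young and 0.05 in Old + Fumarate over Old, and 0 of 16 differed by 1.5-fold.

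Among lincRNAs known for roles in growth and RNA stability, 2900097C17Rik (Norad), which binds Pumilio proteins and is linked to genome stability, was at 239, 258 and 228 CPM in Young, Old and Old + Fumarate. Oip5os1 (Cyrano), which directs the decay of a microRNA, was at 106, 92.4 and 76.5 CPM. Lockd, next to the cell cycle inhibitor Cdkn1b, was at 16.1, 10.9 and 13.2 CPM, and Cdkn1b at 68.8, 45.5 and 40.6 CPM. None of these members reached 2-fold. Trp53cor1 (lincRNA-p21) was at 0.856, 0.985 and 1.87 CPM, while its neighbour Cdkn1a, a cell cycle inhibitor induced by p53, was at 344, 710 and 644 CPM. Trp53cor1 was past 1.5-fold in Old + Fumarate over Young, at a log2 ratio of 0.63. Dubr, which did not differ by 1.5-fold in any comparison, was at 22.9, 20.4 and 23.4 CPM.

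AW112010, known from interferon and inflammatory responses of T cells and myeloid cells (chromosome 19, 11047612 to 11055808), was at 142 CPM in Young, 258 CPM in Old and 291 CPM in Old + Fumarate. Both aged libraries were high, and only Old + Fumarate over Young passed 2-fold, at 1.02 (interval 0.97 to 1.09) against 0.85 for Old over Young. Protein-coding genes of the interferon response stood differently in the treated library. The 20 genes summed to 2385, 2454 and 992 CPM, and 14 of them were at least 2-fold lower in Old + Fumarate than in Old, where 5.87% of all genes and 8.13% of the protein-coding genes at 1 CPM or more were. AU020206 (chromosome 7, 75769038 to 75782099) was also high in both aged libraries, at 63.9, 145 and 121 CPM, with log2 ratios of 1.17 for Old over Young (interval 1.10 to 1.26) and 0.91 for Old + Fumarate over Young.

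Together the members held 2436 CPM in Young, 2759 CPM in Old and 2796 CPM in Old + Fumarate, or 0.244%, 0.276% and 0.280% of each library. The 10 highest members held 62.4%, 66.4% and 66.4% of that. The mean over the 3 libraries was under 1 CPM for 19 members, 1 to 3 CPM for 72, 3 to 10 CPM for 36, 10 to 100 CPM for 26 and at least 100 CPM for 7. These 7 were Gm10076, Gm42047, 2900097C17Rik, AW112010, Malat1, AU020206 and Neat1. Per kilobase of exon, with the exons of all annotated transcripts of a gene merged, the order changed. Gm10076 had a mean of 926 CPM per kb and AW112010 287 CPM per kb. Snhg6 reached 61.8, Gm42047 57.0 and 2900097C17Rik 49.2 CPM per kb. Malat1 and Neat1, divided by 6983 and 20771 bases, had 20.004 and 4.82 CPM per kb. Which transcripts gave the reads was not examined, and a gene read mainly from a short transcript is placed too low on this scale.

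**Figure D1:**
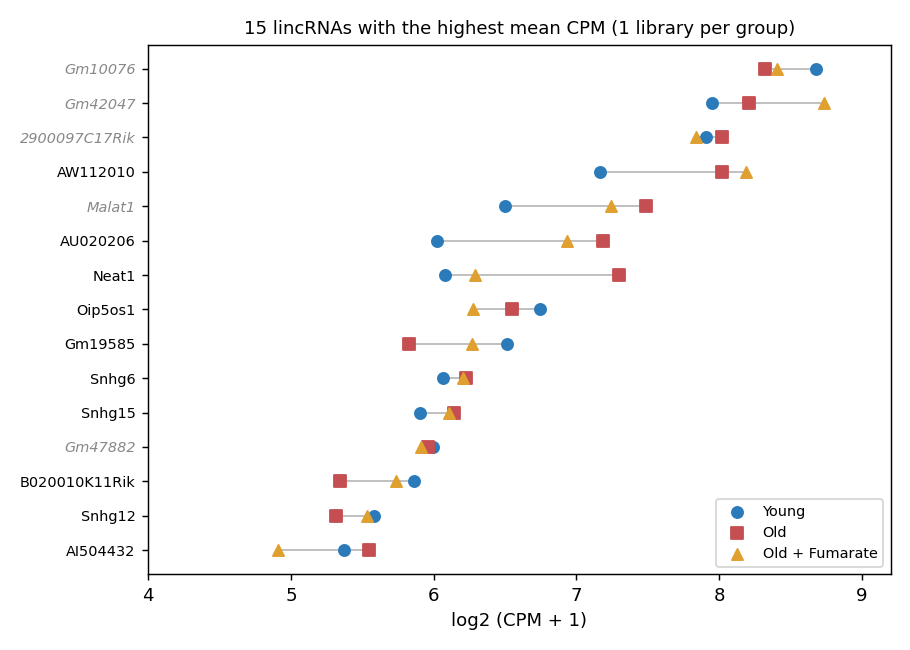
The 15 lincRNAs with the highest mean CPM, on a log2 (CPM + 1) axis, with 1 point per library (circle Young, square Old, triangle Old + Fumarate) and a grey line over their range. Names in grey italics share near-identical stretches with another gene. Neat1 is high in the square alone, at 156 CPM against 66.8 and 77.3, while the Snhg genes lie close together.

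Some of the highest members could not be separated from genes of nearly the same sequence. Of 150 members with a transcript in GENCODE M21, 38 shared a stretch of at least 100 bases at 97% identity or more with another gene of the table. These 38 held 1286 CPM of the members' total in Young, 1330 CPM in Old and 1454 CPM in Old + Fumarate. The sums take the full CPM of each member, although the shared part was small in some, at most 2.16% of a transcript for Malat1 and 2.83% for Lockd. They are thus not the amount that could not be separated. Gm10076, the highest member at 409, 320 and 338 CPM, shared all of its transcript with Rpl41, a ribosomal protein gene at 1500, 1245 and 1315 CPM. The 75-base coding stretch of Rpl41 stands in Gm10076 with 0 mismatches, so no base is in capitals.
Gm10076 and Rpl41: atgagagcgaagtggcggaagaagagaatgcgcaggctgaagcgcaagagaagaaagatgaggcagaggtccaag
Gm42047, at 246, 295 and 425 CPM, had near-identical stretches in the members Gm48362, Gm47761, Gm46349, Gm43549 and Gm47939. The 6 together were at 275, 331 and 481 CPM, a log2 ratio of 0.26 for Old over Young and 0.54 for Old + Fumarate over Old. The sum was highest in the treated library, and the division of reads between the 6 is uncertain. 2900097C17Rik shared 2537 bases with Gm7292, which was at 5.96, 6.37 and 8.04 CPM, and Gm47882, at 62.9, 61.4 and 59.0 CPM, shared 1154 bases with Hnrnpf.

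The comparison of Old with Young addresses age. In it, 13 of the 160 members stood 2-fold or more higher in Old (8.125%) and 3 stood 2-fold or more lower (1.875%). Over all 17796 genes of the table the shares were 8.96% higher and 1.71% lower, and over the 11580 protein-coding genes chosen by the same minimum and chromosomes 12.4% and 2.21%. The share of members was therefore near that of all genes and below that of protein-coding genes. The median log2 ratio was 0.07 for the members, 0.04 for all genes and 0.07 for the protein-coding genes. Of the 13 higher members, 6 (Gm10419, 4930519L02Rik, 1700016F12Rik, 5033406O09Rik, Morrbid and Gm32051) reached 1 CPM in Old alone, and of the 3 lower members Gm29461 did so in Young alone. For these the choice of members itself put the called library highest.

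**Figure D2:**
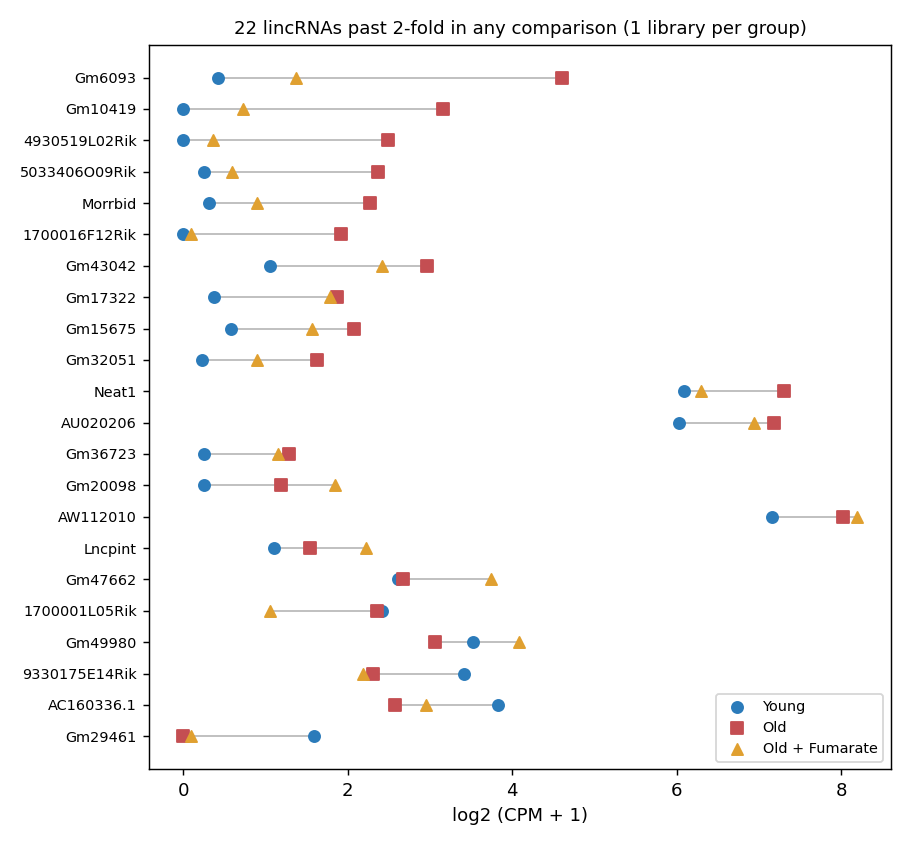
The 22 lincRNAs at least 2-fold apart in any of the 3 comparisons, ordered by the ratio of Old over Young, on a log2 (CPM + 1) axis, with 1 point per library (circle Young, square Old, triangle Old + Fumarate) and a grey line over their range. In the upper 6 names the square stands alone to the right, from Gm6093 at 23.3 CPM to 1700016F12Rik at 2.78 CPM.

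In 7 members the Old library stood at least 2-fold above both others: Gm6093, Gm10419, 4930519L02Rik, 5033406O09Rik, Morrbid, 1700016F12Rik and Neat1. This was 4.375% of the members, against 6.99% of the protein-coding genes, and 0 members stood as far below both others in Old (0.0518% of protein-coding genes). Gm6093 (chromosome 13, 33562486 to 33569317) was at 0.342 CPM in Young, 23.3 CPM in Old and 1.59 CPM in Old + Fumarate, 68.1-fold higher in Old than in Young and 14.7-fold lower in Old + Fumarate than in Old by plain CPM. No other member differed by more in either comparison on the log2 scale, where the ratios were 4.18 and -3.23. Gm10419 (chromosome 5, 108367769 to 108378239) was listed at 0 in Young, at 7.94 CPM in Old and at 0.650 CPM in Old + Fumarate. With 3 reads as the limit that a value of 0 allows in the Young library, it was at least 108-fold higher in Old. 4930519L02Rik (chromosome 3, 143017660 to 143040752) was listed at 0, 4.63 and 0.289 CPM, at least 63.3-fold higher in Old than in Young. 1700016F12Rik (chromosome 5, 96849505 to 96852938) was listed at 0 and 2.78 CPM, at least 37.99-fold higher in Old, and had 1 read in Old + Fumarate. These 3 members were chosen through their value in Old alone, so their low level in Young describes them and adds no support.

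Morrbid, known to limit the apoptosis gene Bcl2l11 in myeloid cells (chromosome 2, 128178319 to 128502765), was at 0.244 CPM in Young, 3.82 CPM in Old and 0.866 CPM in Old + Fumarate. It was 15.7-fold higher in Old than in Young and 4.41-fold lower in Old + Fumarate than in Old by plain CPM. Bcl2l11, whose product Bim promotes cell death, is its nearest protein-coding gene at 15.8 kb and was at 36.6, 15.6 and 13.9 CPM. Bcl2l11 was thus 2-fold lower in both aged libraries, while Morrbid was high in Old and closer to Young after fumarate. 5033406O09Rik (chromosome 12, 111941991 to 111944484) was at 0.195, 4.17 and 0.505 CPM, 21.4-fold higher in Old than in Young. The 7 members that stand highest in Old share their direction with the erythroid, platelet, basophil and mast cell markers given above, and the part of those cells in these values was not tested.

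RefSeq (GRCm38.p6) gives a promoter window, 250 bases before to 50 after a start site, for 78 of the 160 members. Of the windows marked one by one, those of 3 members high in Old hold a match to the letters below and are shown. Those of Gm10419, also high in Old, and of Malat1 hold none and are not shown. Capitals mark matches on either strand to the letters searched: GATAA of GATA factors, TGANTCA of AP-1, TGACNNNGC of NRF2, CACGTG of MYC, TTCNNNGAA of STAT factors, and the interferon-stimulated response element.
Gm6093 (chr13:33569268-33569567, minus strand): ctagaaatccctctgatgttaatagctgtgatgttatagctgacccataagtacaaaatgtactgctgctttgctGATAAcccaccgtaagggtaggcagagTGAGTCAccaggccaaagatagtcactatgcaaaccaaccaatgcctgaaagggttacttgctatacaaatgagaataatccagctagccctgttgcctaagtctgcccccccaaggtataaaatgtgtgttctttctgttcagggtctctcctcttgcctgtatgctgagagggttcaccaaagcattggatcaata
5033406O09Rik (chr12:111944433-111944732, minus strand): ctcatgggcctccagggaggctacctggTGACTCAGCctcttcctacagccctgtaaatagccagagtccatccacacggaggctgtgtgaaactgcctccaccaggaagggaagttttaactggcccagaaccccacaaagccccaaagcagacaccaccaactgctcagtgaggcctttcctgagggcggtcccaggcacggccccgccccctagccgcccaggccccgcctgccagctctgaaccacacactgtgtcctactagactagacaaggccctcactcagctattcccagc
Morrbid (chr2:128429302-128429601, minus strand): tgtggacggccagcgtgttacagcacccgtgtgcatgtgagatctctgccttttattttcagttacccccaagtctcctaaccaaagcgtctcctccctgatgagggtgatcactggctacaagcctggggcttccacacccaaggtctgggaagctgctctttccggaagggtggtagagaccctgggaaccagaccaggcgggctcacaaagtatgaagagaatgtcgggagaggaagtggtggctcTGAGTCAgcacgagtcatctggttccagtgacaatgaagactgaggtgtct
The window of Gm6093 holds 1 match to GATAA and 1 to TGANTCA, that of Morrbid 1 to TGANTCA, and that of 5033406O09Rik 1 to TGANTCA that overlaps 1 to TGACNNNGC. For Morrbid the RefSeq start lies inside the gene as the table places it, not at its outer end. The window of Gm10419, 84.0% G and C, holds none of the 6. Of 27025 windows of this length, 25.8% hold GATAA, 7.93% TGANTCA and 12.5% TGACNNNGC, against 26.9%, 12.8% and 5.13% of the members' windows. For the remaining letters the shares of all windows were 7.24% for CACGTG, 8.47% for TTCNNNGAA and 3.49% for the interferon-stimulated response element, with 8.97%, 3.85% and 1.28% of members' windows. Such matches are letters in a window, not sites shown to be bound.

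Another 4 members were high in Old and had a nearest protein-coding gene that was also at least 2-fold higher there, besides Gm10419. Gm17322 (chromosome 9, 57998041 to 58007451) was at 0.293 CPM in Young, 2.66 CPM in Old and 2.45 CPM in Old + Fumarate. It overlaps Cyp11a1, the enzyme that begins steroid synthesis from cholesterol, on the same strand, and Cyp11a1 was at 0.903, 68.6 and 18.3 CPM. Cyp11a1 is also 1 of the 10 basophil and mast cell markers given above, and the part of those cells in this pair was not tested. Gm15675 (chromosome 1, 130429781 to 130437191) was at 0.496, 3.21 and 1.97 CPM, and lies 1.84 kb from Cd55, a complement inhibitor at 9.71, 51.4 and 17.7 CPM. In both pairs the coding gene stood further below its Old value in the treated library than the lincRNA did. Gm36723 was at 0.195, 1.45 and 1.23 CPM, and its nearest coding gene, the transcriptional inhibitor Id2 at 207 kb, was at 30.8, 118 and 138 CPM. Gm43042 was at 1.07, 6.83 and 4.33 CPM, with Pcdh7 1436 kb away at 0.195, 9.12 and 1.59 CPM. Gm43042 shares near-identical stretches with 6 other genes. Gm10419 starts 153 bases from the start of Gm42517 on the opposite strand, and Gm42517 was at 0.0488, 11.6 and 1.44 CPM, so the pair was high in the same library. Gm32051, at 0.171, 2.09 and 0.866 CPM, lies 0.105 kb from Lrrc8b, a subunit of volume-regulated anion channels, which stayed at 39.2, 41.8 and 37.7 CPM.

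The 3 members lower in Old than in Young also stood below Young in the treated library. AC160336.1 was short of 2-fold there, at a log2 ratio of -0.87. Gm29461 (chromosome 1, 98173648 to 98190698) was at 2.00 CPM in Young and listed at 0 in Old, at least 11.5-fold lower against the limit of 3 reads, and had 1 read in Old + Fumarate. 9330175E14Rik (chromosome 8, 94422898 to 94435103) was at 9.64, 3.94 and 3.54 CPM, with log2 ratios of -1.11 and -1.23 over Young in the 2 aged libraries. It overlaps Nlrc5, a regulator of MHC class I genes, on the opposite strand, and Nlrc5 was at 142, 132 and 107 CPM. AC160336.1 (chromosome 14) was at 13.2, 4.96 and 6.76 CPM. It shares a stretch of 858 bases with Bnip3, a mitophagy receptor at 194, 62.4 and 109 CPM, and reads of the 2 genes may not have been separable. Gm29461 and 9330175E14Rik stood at least 2-fold above both aged libraries in Young, which is 1.25% of the members against 1.32% of protein-coding genes.

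The comparison of Old + Fumarate with Old asks what the treatment changed in aged mice. It shares the Old library with the comparison above, so a member high in Old is placed high in one and low in the other. There were 8 members at least 2-fold lower after fumarate (5%) and 2 at least 2-fold higher (1.25%). The shares over all genes were 5.87% lower and 0.258% higher, and over protein-coding genes 8.13% and 0.276%. The median log2 ratio was -0.06 for the members and -0.04 for both all genes and protein-coding genes. Of the 8 lower members, 7 were the members that stood above both other libraries in Old. The remaining one, 1700001L05Rik (chromosome 15, 83353847 to 83367282), was at 4.34 CPM in Young, 4.11 CPM in Old and 1.08 CPM in Old + Fumarate, with log2 ratios of -1.30 over Old (interval -2.84 to -1.11) and -1.36 over Young. It was low in the treated library alone, the single member at least 2-fold below both others there (0.625%, against 0.44% of protein-coding genes). Its neighbour Arfgap3, a regulator of Golgi transport 3.6 kb away, was at 9.71, 22.1 and 16.2 CPM and so did not share that order.

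Gm47662 (chromosome 13, 32997062 to 33001750) was the member that stood at least 2-fold above both others in Old + Fumarate, at 5.10 CPM in Young, 5.39 CPM in Old and 12.3 CPM in Old + Fumarate. Its log2 ratio over Old was 1.06 (interval 0.82 to 1.58) and over Young 1.13. It lies 1.5 kb from Serpinb9, an inhibitor of granzyme B that protects cytotoxic cells, and Serpinb9 was at 395, 863 and 1123 CPM. The lincRNA was level between Young and Old, where Serpinb9 was already 1.13 higher on the log2 scale. Among protein-coding genes, 0.155% stood at least 2-fold above both others in the treated library. Gm49980, at 10.47, 7.36 and 15.9 CPM, was the other member past 2-fold higher after fumarate, with 1.01 over Old (interval 0.79 to 1.44) and 0.56 over Young. Its neighbour Pik3c3, the lipid kinase of autophagy 0.614 kb away, was at 43.9, 43.3 and 40.6 CPM. In this comparison Neat1, at -1.01, and Gm49980, at 1.01, sat closest to the 2-fold limit, and with either TMM or median-of-ratios scaling Neat1 came to -0.98 and was no longer past it.

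Old + Fumarate over Young shares its libraries with both comparisons above. Higher by 2-fold or more were 6 members (3.75%), and lower by as much were 3 (1.875%), against 3.99% and 1.95% of all genes and 5.5% and 2.63% of protein-coding genes. Medians were 0.06 for the members, 0.00 for all genes and 0.02 for protein-coding genes. The 6 higher members were Gm20098, Gm17322, Gm43042, Gm47662, Lncpint and AW112010. Gm20098 (chromosome 17, 51882727 to 51965257) had the highest ratio, at 0.195, 1.27 and 2.60 CPM with a log2 ratio of 1.59 and 13.3-fold by plain CPM. It lies 49.4 kb from Satb1, a chromatin organiser of T cell development, on the other strand, and Satb1 was at 665, 810 and 1030 CPM. Gm19585, which has the same nearest coding gene, was instead lowest in Old, at 90.5, 55.7 and 75.9 CPM. Both Gm17322 and Gm43042 stood at least 2-fold below in Young against both aged libraries, 1.25% of the members against 4.64% of protein-coding genes. The 3 lower members were Gm29461, 1700001L05Rik and 9330175E14Rik, all described above.

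**Figure D3:**
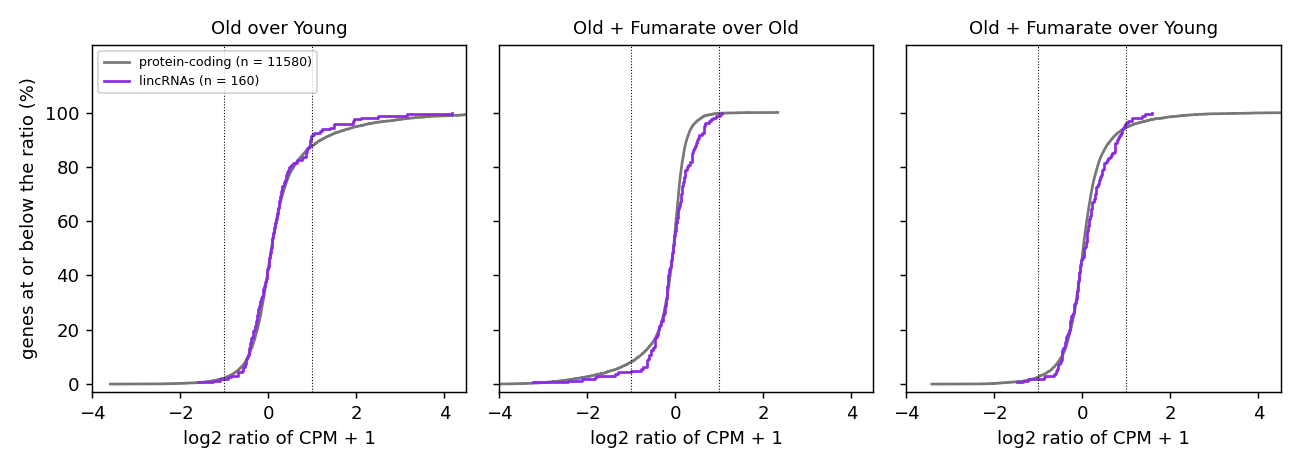
Cumulative share of genes (%) at or below each log2 ratio of CPM + 1, for the 160 lincRNAs and the 11580 protein-coding genes chosen by the same minimum, in the 3 comparisons. Dotted lines mark 2-fold, and the axis ends at 4.5, which leaves the highest protein-coding genes out of view. In Old + Fumarate over Old the lincRNA curve starts lower on the left, with 5% past 2-fold lower against 8.13%. It also lies lower at the right 2-fold line, with 1.25% past 2-fold higher against 0.276%, and ends at 1.06 with 2 members past the line.

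Most members did not differ by 2-fold. Across all 3 libraries, 138 of 160 (86.25%) stayed within 2-fold, compared with 82.5% of the protein-coding genes, and 97 stayed within 1.5-fold. Since lincRNAs are low and CPM + 1 shrinks the ratios of low genes, the shares were also compared at matched levels for Old over Young. Where the highest value was 1 to 3 CPM, 5 of 71 members (7.04%) and 25.7% of protein-coding genes were past 2-fold in either direction. At 3 to 10 CPM these were 7 of 50 (14%) and 31.4%, and at 10 to 100 CPM 2 of 31 (6.45%) and 11.6%. At 100 CPM or more they were 2 of 8 (25%), namely Neat1 and AU020206, and 7.31%. In this comparison the members' share was lower than the protein-coding share in each range under 100 CPM and higher above it, where it rests on 8 members. The median size of the log2 ratio did not follow the shares at 10 to 100 CPM, where it was 0.30 for the members and 0.25 for protein-coding genes. In Old + Fumarate over Old the members' share was lower at 1 to 3 CPM (1.41% against 14.8%) and at 3 to 10 CPM (10% against 21.3%), but higher at 10 to 100 CPM (9.68% against 6.58%) and at 100 CPM or more (12.5% against 2.52%). In Old + Fumarate over Young it was lower in the first 3 ranges (4.23% against 7.85%, 8% against 14.5% and 3.23% against 7.66%) and higher in the last (12.5% against 5.61%).

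By position, the members were often close to protein-coding genes. Of 160, 17 overlapped one and 66 lay within 5 kb, 43 at 5 to 50 kb and 34 further away, with a median gap of 4.10 kb. In 55 pairs the members pointed away from the neighbour (divergent), in 26 towards it (convergent) and in 62 the same way (tandem), and 12 overlapped on the opposite and 5 on the same strand. There were 26 members on the opposite strand with start sites within 1 kb. In GENCODE M21, 64 members shared exon bases with another gene of any kind, 13 of them over at least 50% of their exons, so the class name does not mean that all of them stand apart. Strand use in the counting is not known, and values of overlapping pairs cannot be told apart. Chromosome 5 held 22 members and chromosome 17 held 13, the most of any chromosome.

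Of the 13 members higher in Old than in Young, 5 had a nearest coding gene past 2-fold in the same direction (Gm10419, Gm17322, Gm15675, Gm36723 and Gm43042) and 1 in the other (Morrbid). Among the other 147 members the neighbour was higher for 8, or 5.44%. Of the protein-coding genes at 1 CPM or more, 12.4% were higher in Old than in Young. Id2 and Pcdh7, the neighbours of Gm36723 and Gm43042, lie 207 and 1436 kb away. None of the 3 lower members had a nearest coding gene past 2-fold in either direction. In Old + Fumarate over Old, 1 of 8 lower members (Gm10419) had a neighbour lower by 2-fold, against 8 of the other 152 (5.26%). In Old + Fumarate over Young it was 3 of 6 higher members (Gm17322, Gm43042 and Gm47662), against 3 of 154 (1.95%). Of the same protein-coding genes, 8.13% were lower in Old + Fumarate than in Old and 5.5% higher than in Young. Over members, the log2 ratios of Old over Young of member and neighbour had a Pearson r of 0.52 and a Spearman rho of 0.24 within 5 kb (n = 83), and 0.20 and 0.21 further away (n = 77). For Old + Fumarate over Old these were 0.37 and 0.26 within 5 kb, and 0.05 and 0.20 further away. For Old + Fumarate over Young they were 0.40 and 0.24 within 5 kb, and 0.35 and 0.31 further away, so the rank value was higher further away. The points share the same 3 libraries and some share exon bases, so these values only describe the pairs.

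**Figure D4:**
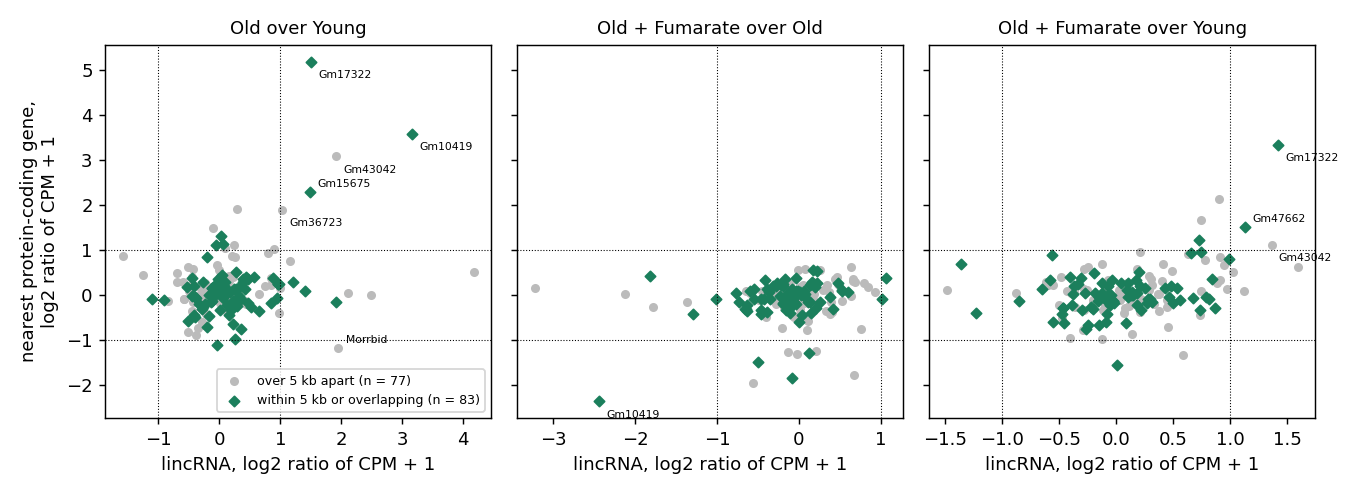
Log2 ratio of CPM + 1 of each lincRNA (horizontal) and of its nearest protein-coding gene (vertical) in the 3 comparisons, with diamonds for pairs within 5 kb or overlapping (n = 83) and circles for pairs over 5 kb apart (n = 77). Dotted lines mark 2-fold, and names are given where both genes are past it. In Old over Young, 5 named pairs lie in the upper right and Morrbid alone in the lower right.

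Genes that remove such RNAs were mostly level between libraries. Among 16 genes of nonsense-mediated decay, which degrades spliced noncoding RNAs that reach ribosomes, 0 differed by 1.5-fold in any comparison, with medians of 0.11 in Old over Young and 0.04 in Old + Fumarate over Old. Among 18 genes of the nuclear exosome, which degrades RNA in the nucleus, 1 was past 2-fold, higher in Old + Fumarate than in either other library. This was Exosc6, at 4.07 CPM in Old + Fumarate, 0.0085 CPM in Old and 1.6e-05 CPM in Young, values below 1 read in the last 2 libraries.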

How the data were processed

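The submitters' processing notes name Partek, STAR and the build mm10. Their versions and roles, the annotation release and strand use are not stated in the sources used here. The authors deposited 1 table that its name calls raw counts, but its values are CPM (each column sums to 1000000). Low values repeat at the worth of 1 read, 0.0244, 0.0579 and 0.0722 CPM in Young, Old and Old + Fumarate, which gave the estimated depths. Only 58.5%, 65.6% and 68.2% of genes sat within 0.02 of whole reads, so no count-based test was run. A value of 0 allows 3 reads, or 0.0732, 0.174 and 0.217 CPM. The 95% Clopper-Pearson intervals treat estimated reads as counts and are therefore approximate. Intervals and limits cover counting error only, since each group has 1 library. They may be too narrow even for that, because reads are not independent molecules.

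Differences are log2 ratios of CPM + 1, counted past 2-fold, for the 3 pairs of libraries, whose groups come from the sample titles. The counting was tried on simulated reads with counting error alone, where changes were set only in genes with a mean of at least 5 CPM. Because 60 members reach 5 CPM in a library, the simulation does not cover most members, nor any spread between mice. Table ends were moved back 1 base, after which 149 members had the same position in GENCODE M21, where exon lengths and overlaps were taken. Near-identical stretches came from blastn 2.17.0 (megablast). The nearest protein-coding gene was sought in the table, leaving out 1 gene spanning at least 3 Mb. Members named are the 10 highest by mean CPM, up to 8 highest and 8 lowest per comparison past 2-fold, members of the noncoding lists and pairs past 2-fold within 5 kb. Hosts of microRNAs and other members named by position or sequence were added after their values were seen. The members and gene lists were chosen with earlier results of these data known. Alternatives were other scalings, constants, fold limits, minimums and subsets of members. Scripts used pandas 2.3.3, numpy 2.4.6 and scipy 1.17.1 under Python 3.11.15, and figures matplotlib 3.10.9. The values of 1 marker gene are not reported here.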

Additional observations from a re-analysis of the deposited data

How the results depend on the processing

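No paired analysis was possible because each group has 1 library, and no replicate could be left out. Counts of members past 2-fold depended on the constant and the limits. With a constant of 0.5 CPM, 26 were higher in Old than in Young and 17 in Old + Fumarate than in Young. With a constant of 5 CPM, Old over Young had 4 higher and 0 lower, Old + Fumarate over Old 0 and 2, and Old + Fumarate over Young 1 and 0. A 3-fold limit gave 7 and 1, 0 and 5, and 1 and 0 in that order. With at least 5 CPM in 1 library, 60 members were left, with 5 higher in Old than in Young, 3 lower in Old + Fumarate than in Old, and 3 higher and 1 lower than in Young. Without members within 5 kb of a coding gene, 77 were left. Of these, Old over Young had 7 higher, Old + Fumarate over Old 0 higher and 4 lower, and Old + Fumarate over Young 1 lower. Without members known to share exon bases, a subset chosen after seeing the data, 96 were left. They include the 10 members without an entry in GENCODE M21, Morrbid and Gm49980 among them, whose overlap is not known. Of the 96, Old over Young had 7 higher and 1 lower and Old + Fumarate over Old 5 lower. The latter subsets hold fewer members by construction. Without Gm10076 the members' share of the libraries was 0.203%, 0.244% and 0.246%. TMM, median-of-ratios and coding-sum scaling moved the median of all genes by at most 0.04 on the log2 scale. The 22 members past 2-fold made 35 calls, which 5 other scalings and constants turned into 175 values: 145 stayed past 2-fold, 30 did not, 28 of these with the constant of 5 CPM, and none changed sign. Low counts limit most members, and counting intervals leave out the spread between mice.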

Other observations

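Other noncoding classes of the table were counted in the same way, outside X and Y and at 1 CPM or more in a library. For reference, 8.96% of all genes were at least 2-fold higher and 1.71% lower in Old than in Young, and 0.258% higher and 5.87% lower in Old + Fumarate than in Old. Of 191 antisense genes, 12 (6.28%) were higher and 4 (2.09%) lower in Old than in Young, and 1 (0.524%) was higher and 8 (4.19%) lower after fumarate. Of 114 processed transcripts, 2 (1.75%) were higher and 1 (0.877%) lower in Old, and 0 higher and 4 (3.51%) lower after fumarate. Of 115 genes listed as to be experimentally tested (TEC), 13 (11.3%) were higher and 1 (0.870%) lower in Old, and 0 higher and 7 (6.09%) lower after fumarate. The 27 transcripts from bidirectional promoters and the 8 sense intronic genes had 1 each higher in Old and none past 2-fold after fumarate.

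Some known hosts of small RNAs fall in these classes and not among the lincRNAs. Gas5, a host of snoRNAs, was at 153 CPM in Young, 169 CPM in Old and 169 CPM in Old + Fumarate. Snhg1 was at 123, 109 and 127 CPM and Zfas1 at 131, 149 and 143 CPM, both hosts of snoRNAs as well. Not all such hosts were level, since Snhg5 had a log2 ratio of -0.80 and 2410006H16Rik of -0.70 for Old over Young. Mir22hg, host of miR-22, was at 5.73, 16.4 and 15.4 CPM, higher in both aged libraries, with log2 ratios of CPM + 1 of 1.37 for Old over Young and -0.08 for Old + Fumarate over Old. Unlike Neat1, it stood near its Old value after fumarate. Peg13, an imprinted gene, was at 4.03, 15.9 and 10.8 CPM. With 1 library per group these values have no replicate check.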
